A study of Homo sapiens with 6 samples.

Results

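The ATF4-CHOP genes examined here are the 10 genes ATF4, DDIT3, ATF3, ATF5, CEBPB, CEBPG, TRIB3, CHAC1, PPP1R15A and NUPR1, chosen by symbol as transcription factors and feedback genes of the integrated stress response, out of 19514 gene names in the deposited table. Each of them had a single row, and 10 of 10 passed the low-count filter, as did 12531 gene names in all. They were measured by polyA-selected RNA sequencing in wild-type ARPE-19 cells, an established human line of retinal pigment epithelium. The aldehyde tt-DDE, or trans,trans-2,4-decadienal, arises from oxidised linoleic acid. In one group of 3 libraries the cells had grown for 24 h with the aldehyde at 40 µM, and in the other 3 to an equal amount of its solvent DMSO, also for 24 h. The comparison asks which transcripts differ after the aldehyde, at a single dose and time in a single line.

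In the integrated stress response, kinases that sense misfolded proteins, missing amino acids, double-stranded RNA or heme shortage phosphorylate the translation factor eIF2. Bulk protein synthesis then slows, while the ATF4 transcript, which carries upstream open reading frames, is translated more. ATF4 is a basic leucine zipper transcription factor that pairs with C/EBP proteins on the C/EBP-ATF response element and switches on DDIT3 (the factor CHOP), ATF3, TRIB3, CHAC1 and genes of amino acid supply. PPP1R15A (GADD34) brings protein phosphatase 1 back to eIF2 and closes the loop. Transcript levels, as measured here, show neither the phosphorylation of eIF2 nor the amount of ATF4 protein.

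The sequences shown first are the stretches before the starts of member genes that hold the motifs through which ATF and C/EBP factors bind. The RefSeq promoter table (GRCh38.p14, 250 bases before to 50 bases after each annotated start) held 18 windows for 9 of the 10 members. The C/EBP-ATF response element was searched as TGATGNAA on both strands. It was in 3 of the 18 windows, those of 3 members (ATF3, CEBPG and CHAC1), against 3.62% of all 35116 windows. The cyclic AMP response element, TGACGTCA, was in 1 of the 18 windows, that of PPP1R15A, and in 1.85% of all windows. An AP-1 site, TGANTCA, which overlaps in letters with the cyclic AMP element, was in 3 of the 18 windows. These were windows of DDIT3 and ATF5, against 7.71% of all windows. The DDIT3 windows, with starts at 57520514 and 57520517, overlap and hold the same site. Counts of windows are thus not counts of separate sites. The motif is in capitals in each line. Stretches that touch an annotated exon, or whose wider surroundings do, are kept to 30 bases.
ATF3, chr1:212565170-212565269, plus strand: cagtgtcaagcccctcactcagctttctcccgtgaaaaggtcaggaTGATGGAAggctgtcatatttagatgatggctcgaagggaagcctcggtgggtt
CEBPG, chr19:33374013-33374112, plus strand: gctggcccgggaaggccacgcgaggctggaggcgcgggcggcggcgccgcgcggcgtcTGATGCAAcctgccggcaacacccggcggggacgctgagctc
CHAC1, chr15:40953251-40953280, plus strand: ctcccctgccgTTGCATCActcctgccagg
PPP1R15A, chr19:48872352-48872381, plus strand: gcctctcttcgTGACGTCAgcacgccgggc
ATF5, chr19:49928706-49928735, plus strand: gggagagtgctgTGACTCAtgctggactct
DDIT3, chr12:57520738-57520767, minus strand: cgcgcgcgcgcaTGACTCAcccacctcctc
The C/EBP-ATF element began 191 bases before the RefSeq start of ATF3 at 212565407, 209 bases before that of CHAC1 at 40953471, where it reads on the reverse strand, and 42 bases before that of CEBPG at 33374113. In GENCODE release 29 the printed CHAC1 stretch overlaps a CHAC1 exon, the ATF5 stretch exons of ATF5 and NUP62, and the DDIT3 stretch an exon of the neighbouring gene MBD6. An antioxidant response element, TGACNNNGC, was in 5 of the 18 windows, of CEBPB, TRIB3 and PPP1R15A, and in 13.3% of all windows. The heat shock element, the unfolded protein response element TGACGTGG and the longer endoplasmic reticulum stress element were in 0 of the 18 windows and in 0.49%, 0.729% and 0.0769% of all windows.

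After tt-DDE 9 of the 10 genes rose and 1, ATF5, fell, at an adjusted p threshold of 0.05 (quasi-likelihood test of edgeR, Benjamini-Hochberg adjustment over all genes). Across all 12531 genes tested 83.3% passed, 41.7% rising and 41.6% falling, so that a call by itself was common. At least 2-fold rises were found in 8 members and in 16.1% of all genes, and at least 2-fold falls in 0 members and in 16.8% of all genes. Rises of at least 16-fold were found in 4 members and in 1.03% of all genes. The median log2 fold change was 2.72 over the members and 0.0013 over all genes. The groups did not overlap in 10 of 10 members and in 83.9% of all genes. In bulk RNA, fewer cells with a transcript and less of it per cell cannot be told apart.

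**Figure D1:**
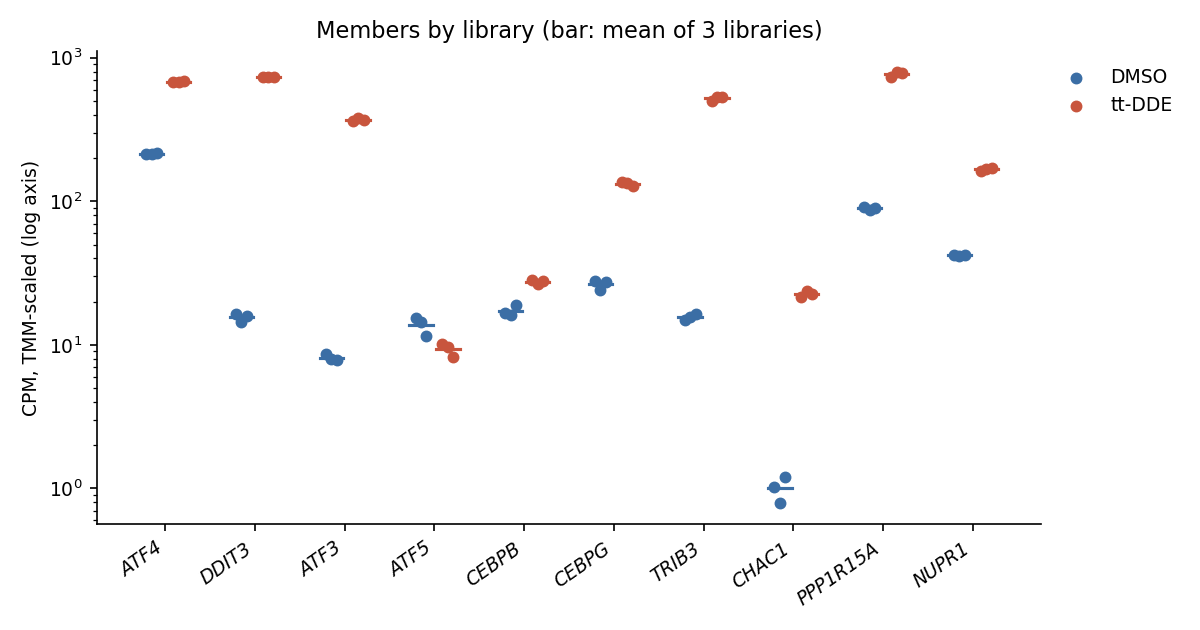
Normalised read count (CPM, log axis) of each member in the 3 DMSO and 3 tt-DDE libraries, with 1 point per library and a bar at the mean of each group. The points of the groups are apart for every member, by the least for ATF5, which is the member that is lower after tt-DDE.

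ATF4, the factor at the head of the pathway, was at 212.2, 215.0 and 218.6 CPM in the DMSO libraries and at 677.4, 677.1 and 689.9 CPM in the tt-DDE libraries. CPM are read counts scaled to the size and composition of each library. All tt-DDE libraries were above all DMSO libraries, and libraries of a group differed by a factor of at most 1.03. The rise was 3.17-fold, a log2 fold change of 1.66 (SE 0.036, adjusted p = 5.83e-37, edgeR), larger than that of 93.1% of genes tested. Of the other members, 7 rose more. The gene model of ATF4 overlaps that of MIEF1 on the same strand, and the part of MIEF1 reads in these values was not tested.

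DDIT3 encodes CHOP, a partner of C/EBP proteins that is linked to cell death when stress lasts. It was at 16.3, 14.5 and 16 CPM in DMSO and at 733.2, 735.8 and 739.9 CPM after tt-DDE. The lowest tt-DDE library was 45 times above the highest DMSO library. The log2 fold change of 5.56 (SE 0.0505, adjusted p = 1.96e-51, edgeR) was the largest of the members and ranked 46 among all genes tested. DDIT3 (chromosome 12, 57516588 to 57520517, minus strand, GRCh38.p13) overlaps MARS1, the cytosolic methionyl-tRNA synthetase, on the other strand over 68 bases, 57516588 to 57516655, which are exonic in both genes and come to 5.77% of the length of DDIT3. MARS1 was at 150.4 ± 5.07 CPM in DMSO and at 169.4 ± 3.29 CPM after tt-DDE (SD, n = 3), which is 0.17 on the log2 scale (SE 0.0414, adjusted p = 0.00021, edgeR). Whether strand was used in counting is not given in the sources used here, and without it reads in the shared bases cannot be assigned to either gene.

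ATF3, a stress-induced factor of the same class that can repress as well as activate transcription, was at 8.65, 7.99 and 7.81 CPM in DMSO and at 360.4, 379.7 and 370.6 CPM after tt-DDE. The groups were far apart, by a factor of 41.6 between the nearest libraries. The log2 fold change was 5.51 (SE 0.059, adjusted p = 5.57e-49, edgeR), rank 48 among all genes tested.

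ATF5, a close relative of ATF4 that is known for its part in the response to mitochondrial protein stress, was the member that fell. Its level was 15.5, 14.4 and 11.5 CPM in DMSO and 10.1, 9.7 and 8.18 CPM after tt-DDE. The DMSO libraries were all above the tt-DDE libraries, but the nearest of them by a factor of only 1.14, and the DMSO library at 11.5 CPM stood below the other two. The log2 fold change was -0.55 (SE 0.121, adjusted p = 6.06e-05, edgeR), and 28.8% of all genes tested had a lower value. ATF5 (chromosome 19, 49928906 to 49933935, plus strand) overlaps NUP62, a nuclear pore protein, and IL4I1, a secreted amino acid oxidase, on the other strand over 599 bases at its start. In GENCODE release 29, 359 of these bases are exonic in both ATF5 and NUP62. NUP62 was at 112.2 ± 3.28 CPM in DMSO and 63.2 ± 4.92 CPM after tt-DDE (SD, n = 3), which is -0.83 on the log2 scale (SE 0.0524, adjusted p = 5.1e-19, edgeR), while IL4I1 had 0 counts in DMSO and 7 after tt-DDE. The part of NUP62 reads in the ATF5 result was not tested.

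The C/EBP members moved by unequal amounts. CEBPB, which serves inflammation and differentiation and is made in activating and inhibiting forms, was at 16.6, 16.2 and 19.0 CPM in DMSO and at 28.2, 26.7 and 27.9 CPM after tt-DDE. This was the smallest rise among the members, 1.6-fold, with a log2 fold change of 0.67 (SE 0.0857, adjusted p = 1.35e-09, edgeR) that 24.5% of all genes exceeded. CEBPG, a short C/EBP protein that pairs with ATF4, was at 28.0, 24.2 and 27.4 CPM in DMSO and at 136.1, 134.2 and 127.2 CPM after tt-DDE. Its rise was 5.01-fold, a log2 fold change of 2.32 (SE 0.058, adjusted p = 1.51e-34, edgeR).

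**Figure D2:**
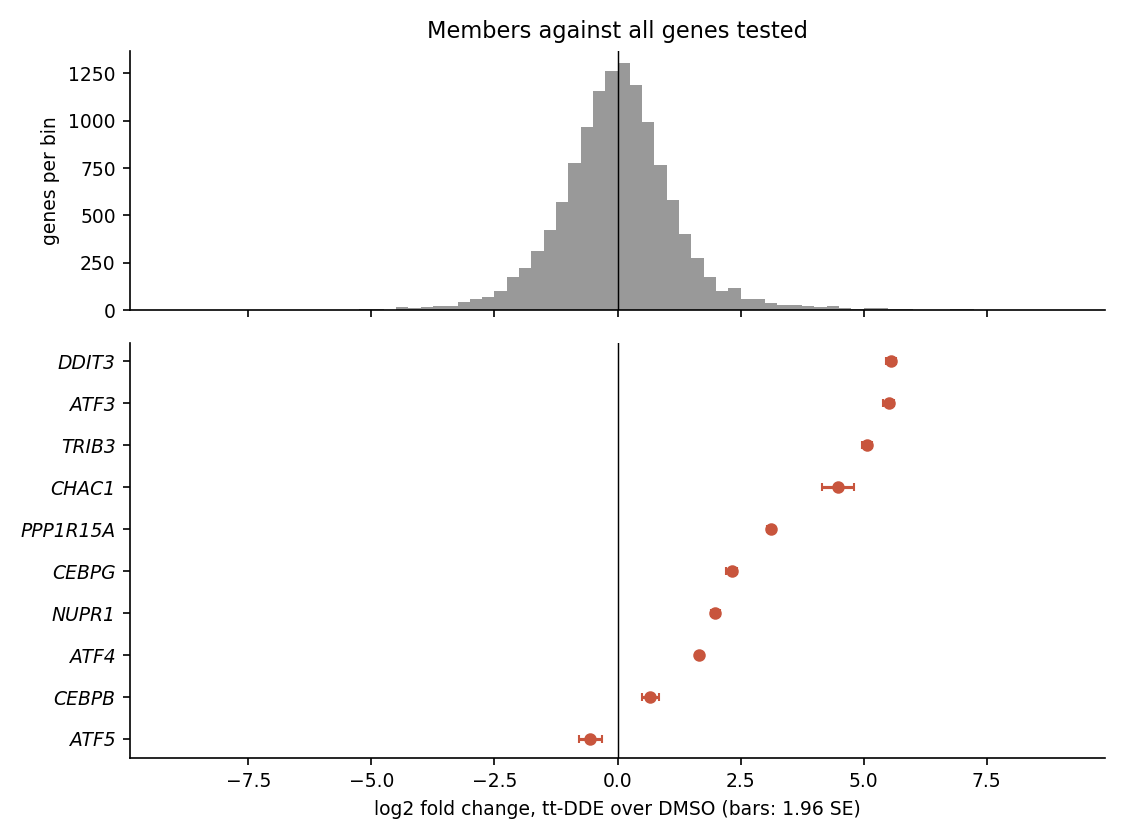
Log2 fold change of each member (tt-DDE over DMSO, bars for an approximate 95% interval, lower panel) under the distribution of all 12531 genes tested (genes per bin, upper panel). DDIT3, ATF3, TRIB3 and CHAC1 lie beyond 4 on the log2 scale, where few genes are, and ATF5 lies below 0.

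Feedback genes rose between the extremes. PPP1R15A, the inducible subunit that directs protein phosphatase 1 to eIF2, was at 90.9, 87.4 and 89.5 CPM in DMSO and at 733.8, 792.1 and 785.2 CPM after tt-DDE. The change was 8.63-fold, a log2 fold change of 3.11 (SE 0.0411, adjusted p = 2.56e-45, edgeR). TRIB3, a pseudokinase that binds ATF4 and AKT and restrains both, was at 15, 15.6 and 16.3 CPM in DMSO and at 502.4, 531.1 and 532.9 CPM after tt-DDE. It rose 33.3-fold, a log2 fold change of 5.06 (SE 0.0519, adjusted p = 1.09e-49, edgeR), and in both genes every tt-DDE library was at least 8.07 times above every DMSO library.

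CHAC1, an enzyme that cleaves glutathione, had 15, 13 and 20 counts in the DMSO libraries, or 1.03, 0.793 and 1.2 CPM. After tt-DDE it had 356, 380 and 341 counts or 21.4, 23.9 and 22.7 CPM. Its log2 fold change was 4.48 (SE 0.162, adjusted p = 3.97e-28, edgeR), with the widest error of the members. Scaled to the library totals alone, the 48 counts in DMSO and the 1077 after tt-DDE give a ratio of 21.1, with an exact 95% interval of 15.8 to 28.7 that covers counting error only. NUPR1, a small stress-induced chromatin protein, was at 42.0, 41.9 and 42.5 CPM in DMSO and at 162.8, 169.0 and 170.8 CPM after tt-DDE. It rose 3.97-fold, a log2 fold change of 1.99 (SE 0.049, adjusted p = 9.15e-35, edgeR).

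Summed over the 10 members, the level was 438.0 to 449.6 CPM in the DMSO libraries and 3366 to 3479 CPM in the tt-DDE libraries. Libraries of a group agreed closely for most members: the coefficient of variation was 0.456% for DDIT3 and 1.07% for ATF4 after tt-DDE, and highest in DMSO, at 20.3% for CHAC1 and 15% for ATF5. No label says whether the libraries of a group came from separate cultures, so the p-values measure the spread between these libraries, which may be technical.

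Levels of different genes were compared per length, as FPKM (counts scaled to the length of the gene model and to the library total) deposited by the authors. In DMSO, PPP1R15A was the most abundant member at 39.2 ± 0.76 FPKM, followed by ATF4 at 28.8 ± 0.549 and DDIT3 at 13.6 ± 0.859 FPKM (SD, n = 3). CEBPB at 8.45 FPKM and NUPR1 at 8.14 FPKM overlapped in range, as did TRIB3 at 5.22 and ATF5 at 5.14 FPKM, with CEBPG between these pairs at 6.36 FPKM. ATF3 at 2.29 FPKM and CHAC1 at 0.171 FPKM closed the order.

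After tt-DDE the order was led by DDIT3 at 605.0 ± 2.49 FPKM (SD, n = 3), which moved from rank 4055 to rank 62 among the 19514 gene names. PPP1R15A followed at 317.3 ± 12.2 FPKM, then TRIB3 at 163.7 ± 4.92 and ATF3 at 97.4 ± 2.24 FPKM, each apart from the next in every library. ATF4 came next at 85.5 ± 0.932 FPKM. NUPR1 at 30.3 FPKM and CEBPG at 29.8 FPKM overlapped in range, CEBPB was at 12.7 FPKM, and CHAC1 at 3.61 FPKM overlapped with ATF5 at 3.27 FPKM.

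**Figure D3:**
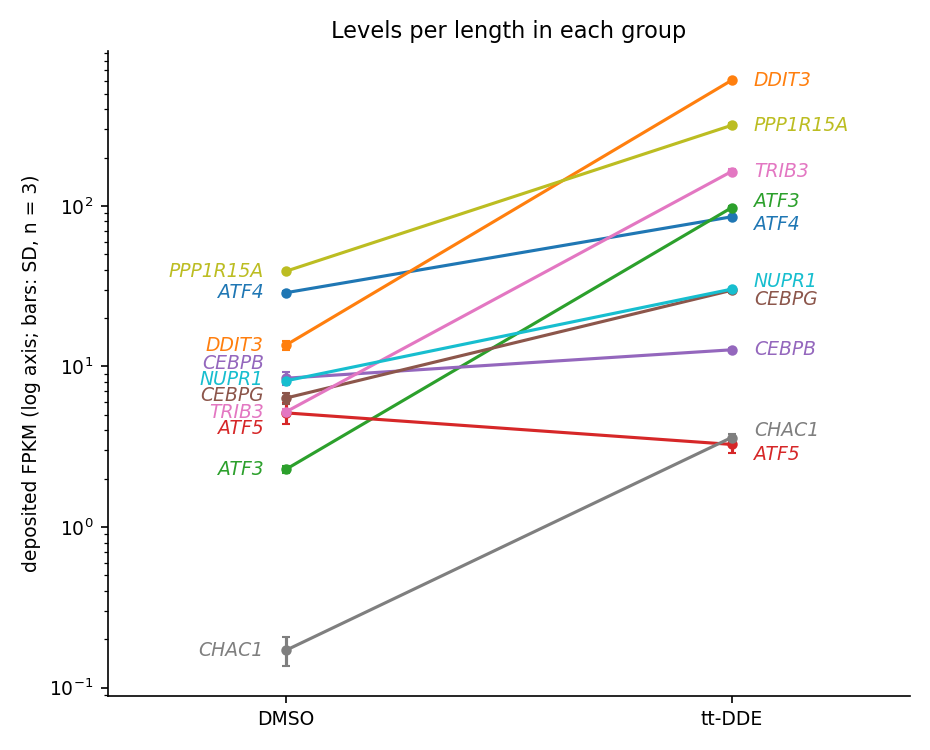
Deposited FPKM of each member in DMSO and after tt-DDE (log axis, mean with SD bars, n = 3). With these lengths DDIT3 becomes the highest member, TRIB3 and ATF3 pass ATF4, which they do not with the median GENCODE transcript length, and ATF5 becomes the lowest member.

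These orders depend on the lengths used, as the place of ATF4 shows. The deposited gene model of ATF4 (chromosome 22, 39514494 to 39522686, plus strand) is 7716 bases long, whereas the 3 protein-coding ATF4 transcripts of the GENCODE release 29 basic set have 1419 to 2019 bases. Its first 3640 bases, 39514494 to 39518133, lie in the gene model of MIEF1, a mitochondrial fission factor on the same strand, and hold no ATF4 exon in GENCODE. Of these bases 3639 are exonic in MIEF1. MIEF1 was at 26.9 ± 3.19 CPM in DMSO and 55.4 ± 1.39 CPM after tt-DDE (SD, n = 3). The part of MIEF1 reads in the ATF4 count, and so in its fold change, ratios and FPKM on either length, was not tested. With the median GENCODE transcript length, a choice made after seeing the data, ATF4 came to 116.3 FPKM in DMSO, first of the members, and to 345.4 FPKM after tt-DDE, second to DDIT3 at 758.2 FPKM. On this scale PPP1R15A followed ATF4 after tt-DDE at 313.6 FPKM. ATF3 at 258.2 FPKM and TRIB3 at 250.7 FPKM came next and overlapped in range, whereas TRIB3 stood above ATF3 with the deposited lengths. NUPR1 was then at 53.7, CEBPG at 32.2, CHAC1 at 15.4, CEBPB at 13.7 and ATF5 at 5.51 FPKM. The 2 NUPR1 transcripts of that set have 550 and 5491 bases, and the median of 3020 bases matches neither. The place of NUPR1 thus depends on which transcript is taken.

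Ratios of 2 genes within a library do not depend on library scaling, and 8 pairs were compared between the groups. With 3 libraries against 3 the exact two-sided permutation test cannot go below p = 0.10. Each of the 8 pairs reached that smallest value (exact permutation p = 0.10, and 0.10 after Benjamini-Hochberg adjustment), since the groups did not overlap in any pair. The log2 ratio of DDIT3 to ATF4 was -3.70, -3.89 and -3.77 in DMSO and 0.11, 0.12 and 0.10 after tt-DDE, a difference of 3.90. ATF3 gained on ATF4 by nearly the same amount, 3.84. ATF5 lost against ATF4, with a difference of -2.22.

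The inducible and constitutive partners of eIF2 phosphatase separated as well. The log2 ratio of PPP1R15A to PPP1R15B, its constitutive relative, was 0.11, 0.09 and 0.07 in DMSO and 2.32, 2.39 and 2.51 after tt-DDE. This is a 4.99-fold change of the ratio. The counts are not corrected for length, so the ratio is read as a change between groups and not as a level. CHAC1 against CHAC2, a relative that also degrades glutathione, shifted most, by 6.39, with log2 ratios from -4.75 to -3.94 in DMSO and from 1.81 to 2.41 after tt-DDE. CEBPB lost 1.64 against CEBPG. TRIB3 lost 0.50 against DDIT3. DDIT3 gained 5.39 against the overlapping MARS1.

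**Figure D4:**
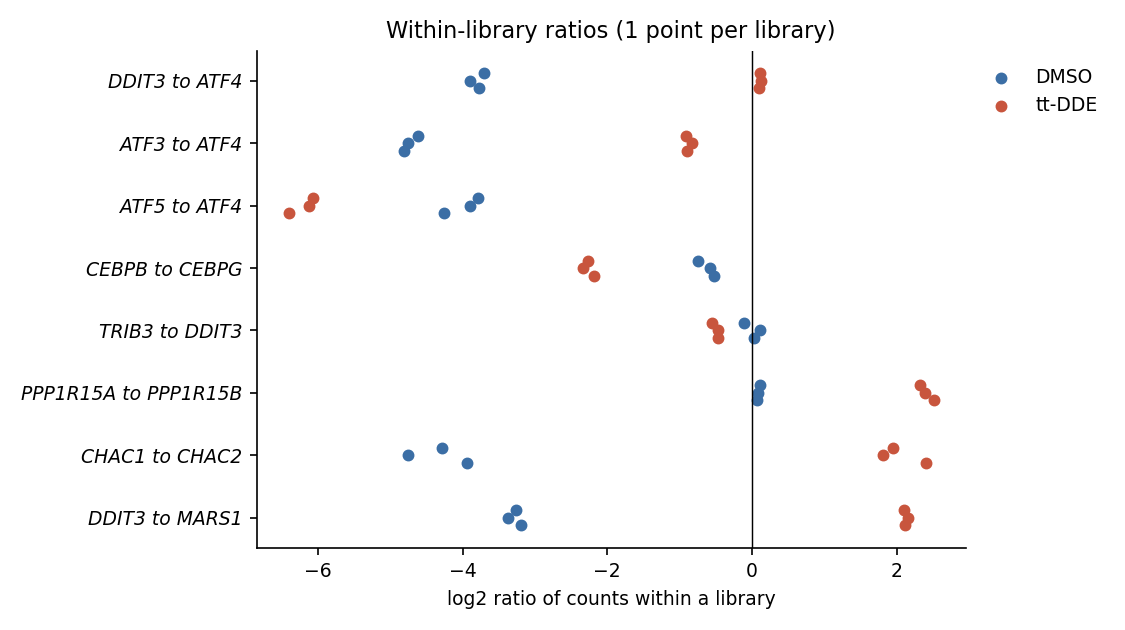
Log2 ratio of the counts of 2 genes within each library, with 1 point per DMSO and per tt-DDE library. The groups are apart in all 8 pairs, by the most for CHAC1 to CHAC2 and by the least for TRIB3 to DDIT3.

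Around the members, genes of the same pathway were read in lists that were not picked for how they moved, although earlier results of these data were known. Their counts stand against 41.7% of all genes higher and 41.6% lower. Of 38 established ATF4 targets outside the members 35 were tested, of which 31 rose, 3 fell and 1 missed the threshold; the median log2 fold change was 0.95 against 0.0013 over all genes. HERPUD1, which helps remove proteins from the endoplasmic reticulum, had a log2 fold change of 4.69 (SE 0.0425). SLC3A2 and SLC7A11, which together form the cystine and glutamate exchanger, had 4.33 and 3.91, and GARS1, the glycyl-tRNA synthetase, had 2.33. STC2, a secreted glycoprotein, fell 2.08-fold, with 210.8 ± 5.03 CPM in DMSO and 101.5 ± 5.24 CPM after tt-DDE (SD, n = 3). ALDH1L2, FGF21 and INHBE had too few counts to be tested.

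Of 8 genes linked to CHOP 6 rose and 2 fell, with a median of 0.73, where 41.7% of all genes rose and 41.6% fell. SQSTM1, an autophagy receptor, had a log2 fold change of 3.22, DNAJC3, a co-chaperone that inhibits the eIF2 kinase PERK, of 3.04, and TNFRSF10B, the death receptor DR5, of 1.77. BCL2, an inhibitor of apoptosis that CHOP is known to repress, fell by 1.79 on the log2 scale (SE 0.182, adjusted p = 3.48e-12, edgeR), with 7.72 ± 0.751 CPM in DMSO and 2.23 ± 0.416 CPM after tt-DDE (SD, n = 3).

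Of 18 genes of the eIF2 kinases and the translation gate 6 were higher, 9 were lower and 3 missed the threshold, with a median of -0.14, where 41.7% of all genes were higher and 41.6% lower. These counts are not read as a result about the list. EIF2AK3, which encodes PERK, the kinase of the endoplasmic reticulum, rose by 2.23 on the log2 scale (SE 0.0679), with 21 ± 1.91 CPM in DMSO and 97.8 ± 8.28 CPM after tt-DDE (SD, n = 3). EIF2S2, the beta subunit of eIF2, and PPP1R15B rose by 0.78 and 0.79, and PPP1CA, a catalytic subunit of protein phosphatase 1, fell by 0.76. Among the close relatives of the feedback members, TRIB1 rose by 0.73, CHAC2 fell by 1.84, TRIB2 had a log2 fold change of 0.04 and did not pass (adjusted p = 0.807, edgeR), and NUPR2 was not detectable at this depth, with 0 counts in each of the 6 libraries.

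Of 14 other ATF and C/EBP family genes 12 were tested, of which 7 rose, 1 fell and 4 missed the threshold. Their median was 0.45, where 41.7% of all genes rose and 41.6% fell. CREM, a factor of the cyclic AMP response, rose by 1.97, JDP2, a repressor that pairs with ATF3, by 1.46, ATF2 by 0.83 and CREB1 by 0.62, and BATF3 fell by 0.90. Of 8 genes of the mitochondrial protein stress response that ATF5 is known to serve, 6 rose, 0 fell and 2 missed the threshold (median 0.62). These counts stand beside the same shares of all genes. The chaperone HSPD1 had a log2 fold change of 2.27, the protease LONP1 of 1.30, the chaperone HSPA9 of 1.08 and CLPX, a regulatory subunit of a mitochondrial protease, of 0.44.

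**Figure D5:**
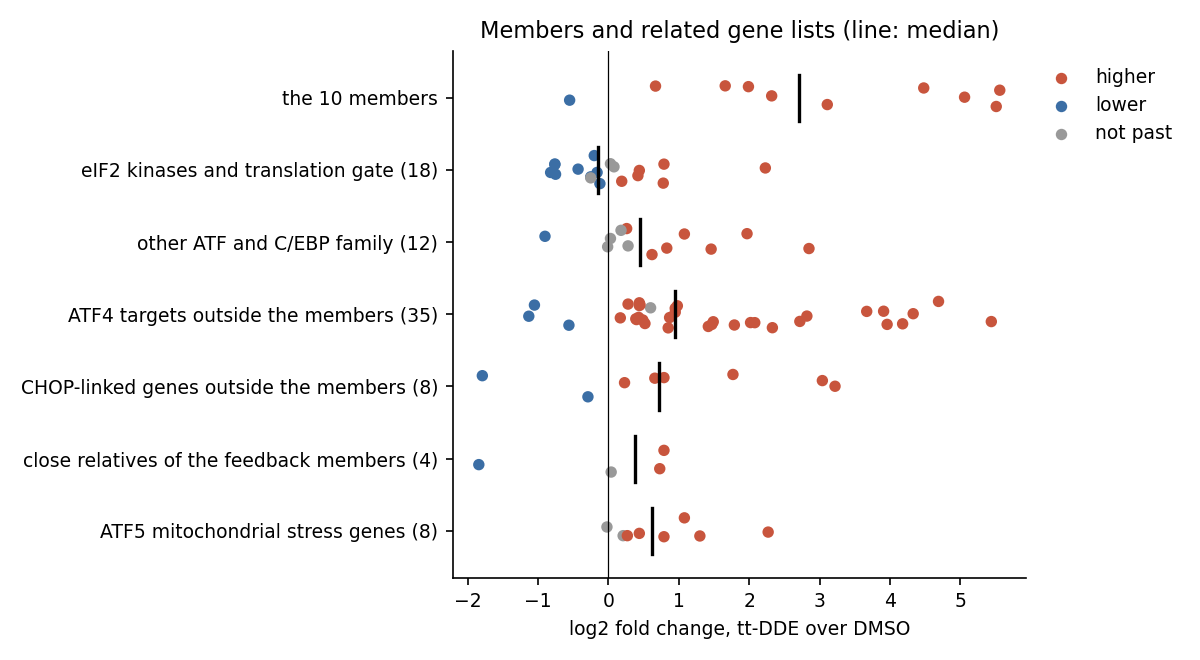
Log2 fold change (tt-DDE over DMSO) of the 10 members and of each gene tested in 6 related lists, with the number tested in brackets, colours for higher, lower and not past the threshold, and a line at each median. The members reach from -0.55 to 5.56 with a median of 2.72, and no list has a median above 0.95.

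The genes whose pattern over the 6 libraries was nearest to that of ATF4 were ALG2, IGF2R and TAX1BP1, at Euclidean distances of 0.0426, 0.0624 and 0.065 between centred log2 CPM, out of 10300 genes whose mean over the 6 libraries was 5 CPM or more, with the other members left out of the search. Their log2 fold changes were 1.64, 1.66 and 1.66. For DDIT3 the nearest were GCNT3, BEST1 and ZFAND2A, at the larger distances of 0.543, 0.676 and 0.761. The log2 fold changes of GCNT3, BEST1 and ZFAND2A were 6.94, 5.39 and 6.15, against 5.56 for DDIT3. Genes with a change near that of DDIT3 are few. Between 5.5 and 5.75 on the log2 scale lay 6 genes, DDIT3 and the left-out member ATF3 among them, against 275 between 1.5 and 1.75. The distances for ATF4 and DDIT3 are therefore not compared as degrees of likeness. The distances use log2 CPM with a prior count of 2, which shrinks fold changes of genes with few counts in DMSO. The place of GCNT3, with 4 counts in DMSO, depends on that prior count. GCNT3 and BEST1 passed the limit on the mean through the tt-DDE libraries, with 0.0836 and 0.506 CPM in DMSO and 11.3 and 21.6 CPM after tt-DDE. BEST1 overlaps FTH1 on the other strand.

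Library totals were between 14156421 and 16061373 counts for DMSO and between 15548067 and 17130543 counts for tt-DDE. Of 14 markers of retinal pigment epithelium 11 were tested. After tt-DDE 3 were higher (BEST1 42-fold, TYRP1 2.11-fold and LRAT 1.52-fold) and 5 were lower, beside 41.7% of all genes higher and 41.6% lower. RPE65, which isomerises retinoids in the visual cycle, was at 0 counts in 6 of 6 libraries. The summed level of this list was 1980 to 2028 CPM in DMSO and 833.6 to 862.2 CPM after tt-DDE. Most of that sum was KRT8, at 748.1 and 213.7 CPM in the respective groups, KRT18, at 364.6 and 144.8 CPM, and EZR, at 753.6 and 340.1 CPM. Summed leukocyte markers were at 127.0 to 131.8 CPM in DMSO and 100.2 to 116.9 CPM after tt-DDE, most of it CD68 (128.8 and 105.6 CPM), while CD14 had 2 counts in DMSO and 84 after tt-DDE and CD3E had 0. Endothelial markers were at 1.4 to 1.56 CPM in DMSO and 2.02 to 2.19 CPM after tt-DDE. The groups overlapped for photoreceptor and neuron markers, at 6.55 to 7.35 and 6.37 to 7.62 CPM with CRX at 0 counts, and for keratinocyte markers, at 15.7 to 19.9 and 17 to 22.2 CPM. Most of the photoreceptor and neuron sum was PDE6B (6.43 and 6.08 CPM), while RBFOX3 had 0 counts in DMSO and 36 after tt-DDE and was called higher. The part of such differences in the results for the members was not tested.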

How the data were processed

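The 6 polyA-selected libraries of ARPE-19 cells, 3 with DMSO and 3 with tt-DDE, were grouped by their titles. The authors deposited whole-number read counts and FPKM per gene, per the file headers. For 91254 of 91254 values above 0, the deposited FPKM was the count scaled to gene length and column total (relative tolerance 1e-06). Coordinates of genes are in GRCh38.p13, a build named in the submitters' processing notes. Not given in the sources used here are the aligner, the counter, the annotation release and the use of strand. Of 22312 rows, those sharing a name were summed, giving 19514 names, of which 1290 had several rows.

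Group was the one term of a quasi-likelihood model of these counts (edgeR 4.0.16 under R 4.3.3, TMM scaling, genes kept by filterByExpr). P-values are two-sided and adjusted after Benjamini and Hochberg over 12531 names, with a threshold of 0.05. The test was also run on simulated data. CPM use the TMM-scaled library sizes, and each SD is over 3 libraries. The common dispersion was 0.00134 and the median SE of a log2 fold change 0.0742. Replicates differed beyond sampling noise, with a chi-square of 1.74 to 3.57 per degree of freedom, so none was counted as a repeat. Intervals cover counting error only, as amplified reads that carry no molecular identifier cannot be taken as separate molecules.

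Named genes are the 10 members, genes that overlap them, the partners in the ratios, the 4 genes of smallest p in each list with the first of the rarer direction, and the 3 genes nearest in pattern to ATF4 and to DDIT3, other members left out. Marker genes, and the kinase, eIF2B and C/EBP genes of the closing section, fall outside this rule and were named after their values were seen. The members and lists were chosen with earlier results of these data known. Sequences are RefSeq's (GRCh38.p14), and transcript lengths and exons are those of GENCODE release 29. Protein sequences were not analysed here. Alternatives were RLE factors, library size alone, DESeq2 1.42.0, no low-count filter, unsummed rows, a replicate block, limma 3.58.1 on log2(FPKM + 1) and log2(FPKM + 0.1), and leaving out each library.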

Additional observations from a re-analysis of the deposited data

How the results depend on the processing

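Each of the 10 members kept its direction and its call under all 14 alternatives. Over the fits on counts, the log2 fold change was 5.47 to 5.59 for DDIT3, 1.57 to 1.67 for ATF4 and -0.68 to -0.47 for ATF5, the member with the weakest call (largest adjusted p = 0.00247, limma on log2(FPKM + 0.1)). On the log2(FPKM + 1) scale, which understates changes of low genes, CHAC1 was at 1.98, and on log2(FPKM + 0.1) at 3.78, against 4.48 on counts. Counts of called genes in the lists moved by at most 1. Lower genes of the mitochondrial list, 0, became 1 under both FPKM scales, and under some alternatives the eIF2 list had 7 higher or 8 lower genes, the other ATF and C/EBP genes 6 higher and the ATF4 targets 30 or 32 higher. List medians were less stable, though none changed sign. They ran from 0.28 to 0.62 for the other ATF and C/EBP genes and from 0.50 to 0.79 for the mitochondrial list. For the ATF4 targets they ran from 0.74 to 1.01, and for the genes linked to CHOP from 0.51 to 0.76. With library size alone 45.43% of all calls were higher, against 50.06% with TMM, and the median of all genes was -0.091. Same-numbered libraries did not deviate together (correlations 0.0166, -0.00577 and -0.0119, and 2 of 6 libraries correlated best with their own number), and a replicate block gave 5192 higher and 5179 lower genes, against 5223 and 5210 without it, and changed no call of a member. The ratio differences moved by less than the spread between libraries when a library was left out. Leaving rows unsummed could not change them, as each gene of the pairs has a single row. Leaving out a library gave 4.32 to 4.63 for CHAC1, whose precision is limited by 13 to 20 counts per DMSO library.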

Other observations

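Within the list of eIF2 kinases and the translation gate, smaller groups were looked at after their values were seen, and their counts, beside 41.7% of all genes higher and 41.6% lower, are a description. Of the 4 eIF2 kinases 2 rose, 1 fell and 1 missed the threshold. EIF2AK3 (PERK) had the largest change, EIF2AK2, the kinase of double-stranded RNA, rose by 0.44, EIF2AK4, the kinase of uncharged tRNA, fell from 89.1 ± 3.63 to 50.3 ± 2.63 CPM (SD, n = 3), and EIF2AK1, the heme-regulated kinase, missed the threshold (adjusted p = 0.0691, edgeR), with 156.7 ± 2.03 CPM in DMSO and 165.7 ± 4.74 CPM after tt-DDE (SD, n = 3). Of the 5 subunits of eIF2B, the exchange factor that phosphorylated eIF2 blocks, 4 fell and 1, EIF2B2, rose by 0.42. EIF2B1 and EIF2B3 had log2 fold changes of -0.75 and -0.76. EIF2B4 and EIF2B5 fell less, with -0.20 and -0.12, and EIF2B5 was close to the threshold (adjusted p = 0.0443, edgeR).

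The groups that follow were also chosen after their values were seen. All 8 aminoacyl-tRNA synthetases in the list of ATF4 targets were called higher, where 41.7% of all genes were, from a log2 fold change of 0.17 for MARS1 to 2.33 for GARS1. MARS1 shares exonic bases with DDIT3, and the part of DDIT3 reads in the MARS1 value was not tested. Of the 3 C/EBP genes outside the members, CEBPA had 14 counts in DMSO and 103 after tt-DDE, CEBPD had a log2 fold change of 1.08, and CEBPE had 0 counts in the 6 libraries.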
